A study of Rattus norvegicus with 27 samples.

Results

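The comparison is that of the hippocampus of Goto-Kakizaki (GK) rats with the hippocampus of Wistar control rats, and it rests on 6 of the 27 arrays of the study: 3 arrays titled as type 2 diabetic hippocampus and 3 titled as control hippocampus. Each array was hybridised with RNA of 1 pool of 3 animals, and the animals were male and 10 weeks old. The 9 GK rats had a mean blood sugar of 13.9 mmol/l and the 9 Wistar control rats 7.64 mmol/l, and no treatment is named for either group. The other arrays hold the prefrontal cortex and striatum of the same groups and all 3 regions of Wistar rats that were made diabetic with an intravenous injection of streptozotocin (STZ), which had 26.34 mmol/l at the same age. Since GK and Wistar are different strains, a difference that goes with the strain and a difference that goes with the high blood sugar cannot be told apart here, and the values describe tissue from which cell number and RNA per cell cannot be separated either.

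The GK rat is a non-obese model of type 2 diabetes that was bred from Wistar rats by repeated selection of animals with poor glucose tolerance. The hippocampus, the brain region of spatial and episodic memory, expresses insulin receptors, and insulin reaching it acts on synaptic plasticity and on the metabolism of neurons and glia. Streptozotocin kills the insulin-producing cells of the pancreas and so gives high blood sugar in the Wistar strain itself.

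Values are given as relative signal, the processed intensity of a probe in percent of the 75th percentile of its array, so that 100 is the level below which 75% of the probes of that array lie. A probe was tested if no fewer than 2 GK arrays or 2 control arrays measured it clearly above background, by the flag of the scanner software, and it was called at an adjusted p under 0.05 and a difference of at least 2-fold in limma's moderated test with Benjamini-Hochberg adjustment. The 75th percentile of the 6 arrays lay between 1039.74 and 1527.19 intensity units, and between 67.7% and 74.3% of the 41012 probes exceeded background. The correlation between pools over the tested probes was 0.995 to 0.996 within GK, 0.992 to 0.994 within control and 0.985 to 0.988 between GK and control. GK pool 1 shared a slide with control pools 1 and 3, the other GK pools lay together on another slide and control pool 2 on a further one.

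Of 30362 tested probes, 240 were called higher in GK hippocampus (0.790% of those tested) and 350 lower (1.15%). With the 50th percentile in place of the 75th, which moved the median of all probes by 0.10 on the log2 scale, the same comparison gave 321 higher and 294 lower probes, so that the share of higher ones among the calls was 52.2% in place of 40.7%. The median log2 difference was 1.38 among the higher and -1.48 among the lower probes, against -0.04 over all tested probes. Differences above 8-fold were found for 9 higher and 33 lower probes. For 23 of the higher probes no control array was above background, and for 91 of the lower probes no GK array was, so that their folds are bounds. Called probes were dim, with a median relative signal of 16.2 for the higher and 10.0 for the lower ones, against 35.2 for all. In 587 of the 590 called probes every GK pool lay on 1 side of every control pool, as did 45.2% of all tested probes. A gene symbol was known for 254 of the called probes, which belong to 245 of 12739 tested genes (1.92%).

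The genes with the largest changes are described among those whose groups did not overlap, so that separate groups were a condition for naming them. The largest decrease was that of Spock2, which encodes a secreted proteoglycan of the brain matrix (testican). Its relative signal was 20.5, 21.0 and 18.1 in the GK pools, against 1683 and 1850 in control pools 1 and 3, while the spot of control pool 2 was left out as an outlier. The probe was 88.9-fold lower in GK (log2 difference -6.47 ± 0.19 SE, adjusted p = 5.3e-14, limma). Galnt16, one of the transferases that start O-glycosylation, gave 11.4, 13.8 and 12.5 in the GK pools, against 312, 330 and 335 in the control pools. Galnt16 was 26.0-fold lower in GK (log2 difference -4.70 ± 0.23 SE, adjusted p = 1.4e-11, limma). Galnt2, a close relative of Galnt16, gave 430, 448 and 437 in the GK pools, against 993, 1193 and 1138 in the control pools (log2 difference -1.33, adjusted p = 1.8e-04, limma). The probe sequences of Spock2 and Galnt16 are shown because each is the only tested probe of its gene, so that both differences rest on these letters; each is written in lower case as the array carries it.
Spock2, A_44_P152177, chromosome 20: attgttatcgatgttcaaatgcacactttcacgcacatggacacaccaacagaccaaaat
Galnt16, A_44_P112488, chromosome 6: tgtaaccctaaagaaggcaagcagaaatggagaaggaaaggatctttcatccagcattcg
Among 35 tested genes of matrix proteoglycans and glycosylation these 3 were called lower and none higher, and the median of the list was -0.19, against -0.03 over all genes. Spock1 and Spock3, the relatives of Spock2, had log2 differences of -0.25 and -0.10 and were not called.

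Ephx2, the soluble epoxide hydrolase that turns fatty acid epoxides into diols, gave 2.82, 2.84 and 2.05 in the GK pools, against 39.1, 39.4 and 36.1 in the control pools, a 15.0-fold decrease (log2 difference -3.91 ± 0.20 SE, adjusted p = 1.7e-11, limma). Cyp27a1, the sterol hydroxylase of mitochondria, gave 4.36, 4.89 and 4.19 in the GK pools, against 17.7, 19.7 and 19.8 in the control pools (log2 difference -2.09, adjusted p = 1.0e-06, limma). The GK pools were low for both enzymes. Allc, which encodes allantoicase of purine breakdown, gave 3.22, 3.29 and 2.71 in the GK pools, against 34.5, 28.5 and 27.2 in the control pools. Rps7, a protein of the small ribosomal subunit and the called neighbour of Allc in the gene order of chromosome 6, gave 236, 229 and 241 in the GK pools, against 2055, 1927 and 1946 in the control pools. Both genes were about equally far apart, with log2 differences of -3.29 and -3.07. Trim16, a tripartite motif protein, gave 2.79, 2.10 and 2.02 in the GK pools, against 24.1, 31.4 and 32.0 in the control pools (12.7-fold lower in GK, adjusted p = 1.1e-09, limma).

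For several of the largest decreases the GK arrays gave no signal above background, so that only a bound is known. Tpcn2, a cation channel of endosomes and lysosomes, was at least 8.79-fold lower in GK (mean relative signal 0.802 ± 0.253 in GK and 17.5 ± 3.03 in control, SD, n = 3 each; adjusted p = 1.1e-08, limma). Adcy10, the bicarbonate-responsive soluble adenylyl cyclase, was at least 6.52-fold lower (1.57 ± 0.178 in GK and 13.4 ± 4.61 in control, adjusted p = 8.5e-07 in the same fit by limma), and Sult1c2a, a sulfotransferase, at least 4.34-fold lower (1.09 ± 0.350 in GK and 8.66 ± 1.56 in control). Slc9b1, a sodium and proton exchanger, was at least 2.83-fold lower and Sftpc, known as a surfactant protein of the lung, at least 1.66-fold lower. All 5 were dim in the control pools too, with mean relative signals from 3.29 for Sftpc to 17.5 for Tpcn2.

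Cxcl13, a chemokine that attracts B lymphocytes, had the largest fitted increase with a gene symbol, of which only a bound is known. It gave 9.40, 3.13 and 9.09 in the GK pools, against 0.475, 0.389 and 0.850 in the control pools, none of which was above background. The increase was at least 3.62-fold (mean 7.20 ± 3.53 in GK and 0.571 ± 0.245 in control, SD, n = 3 each; adjusted p = 2.2e-07, limma). Tanc2, a scaffold protein of the postsynaptic density, gave 47.8, 40.8 and 43.5 in the GK pools, against 4.30, 4.05 and 3.69 in the control pools, and was 11.0-fold higher in GK (log2 difference 3.46 ± 0.40 SE, adjusted p = 4.9e-06, limma). GK pool 2 was the lowest GK pool for Cxcl13 and control pool 3 the highest control pool. Plcxd2, a phospholipase C with an X domain only, was the brightest of the genes with the largest increases and gave 985, 933 and 899 in the GK pools, against 176, 263 and 242 in the control pools (4.20-fold higher in GK, adjusted p = 5.5e-06, limma).

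Acox2, a peroxisomal oxidase for branched fatty acids and bile acid precursors, gave 15.8, 18.3 and 14.9 in the GK pools, against 3.44, 4.01 and 2.50 in the control pools (log2 difference 2.32 ± 0.41 SE, adjusted p = 9.0e-04, limma). Kif15, a kinesin of the mitotic spindle, gave 17.0, 20.0 and 18.1 in the GK pools, against 3.69, 3.88 and 3.30 in the control pools (5.07-fold higher in GK). C1qtnf9, a secreted protein of the adiponectin family, was 5.07-fold higher as well, with values of 20.4, 22.3 and 20.1 in the GK pools, against 5.48, 3.75 and 3.42 in the control pools. Dmkn, a secreted protein named for its expression in skin, was 4.20-fold higher and Areg, the ligand amphiregulin of the epidermal growth factor receptor, 4.09-fold higher in GK. Lower bounds are known for Adam32, a membrane metalloprotease-like protein, at least 3.99-fold higher, Ces1d, a carboxylesterase, at least 2.92-fold, Lrat, which esterifies retinol, at least 1.77-fold, and Kmo, the kynurenine monooxygenase of tryptophan breakdown, at least 1.42-fold. The calls of 3 genes of this set depended on single pools. RGD1309362, of no known role here, gave 24.7, 34.3 and 22.4 in the GK pools, against 4.71, 1.03 and 14.0 in the control pools. Its adjusted p was 0.029, became 0.0035 without control pool 3 and lay between 0.071 and 0.21 without any other pool (limma). With the slide as a block in the fit it was 0.073 (limma). Mrps10, a protein of the mitochondrial ribosome, gave 62.0, 67.4 and 66.4 in the GK pools, against 17.9, 27.8 and 5.39 in the control pools, and its adjusted p of 0.026 held only without control pool 2 (0.013) and lay between 0.05 and 0.19 without each other pool (limma). The call of Ces1d was lost without GK pool 1 (adjusted p = 0.06, limma).

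**Figure D1:**
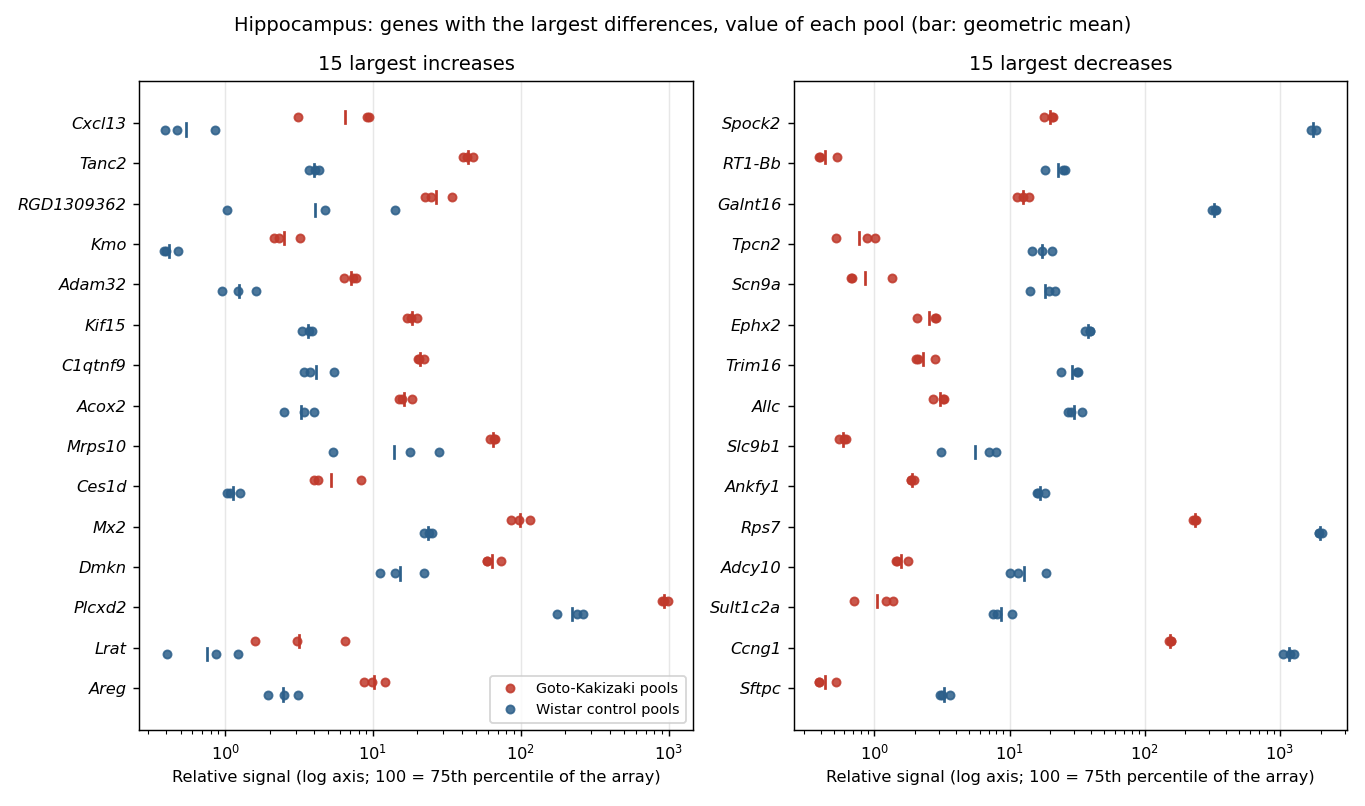
Relative signal (log axis, 100 = the 75th percentile of the array) of the 15 called genes with the largest increases (left) and the 15 with the largest decreases (right) among those with separate groups, with 1 point for each GK pool (red, upper row of a gene) and each Wistar control pool (blue, lower row) and a bar at the geometric mean. The genes were chosen among those with separate groups, the control pools of RGD1309362 and Mrps10 are spread most widely, and Spock2 has 2 control points, 1683 and 1850, since 1 spot was left out.

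Genes that the array measures with more than 1 probe allow a difference to be compared between probes of the same gene. Probes were not aligned to a genome or transcript here. Strain variants and splice forms under a probe were not tested, also for genes with a single tested probe such as Spock2, Galnt16 and Rps7. Of 3164 genes with at least 2 tested probes, 67 had a called probe. In 58 of the 67 only 1 probe was called, in 8 every tested probe was, and in 48 the other probes had the same sign as the called one. Among the 8 are 2 genes, Fgb and Aurkb, whose probes were called in opposite directions (Aurkb at 1.47 and -1.03). Of the 67 pairs of a called probe and the probe farthest from it, 1 pair shared a run of at least 12 bases, and the other pairs shared no such run. The first 4 pairs are shown because they had the widest gaps among genes with a called and an uncalled probe, and the last 2 because both probes were called the same way.
RT1-Bb, A_44_P552452, chromosome 20: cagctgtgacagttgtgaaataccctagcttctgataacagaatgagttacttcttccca
RT1-Bb, A_44_P500803, chromosome 20: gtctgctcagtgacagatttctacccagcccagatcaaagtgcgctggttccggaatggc
Scn9a, A_44_P113806, chromosome 3: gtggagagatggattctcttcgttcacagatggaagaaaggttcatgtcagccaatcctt
Scn9a, A_44_P386383, chromosome 3: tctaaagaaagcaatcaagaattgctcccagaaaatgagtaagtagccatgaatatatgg
Ankfy1, A_43_P21350, chromosome 10: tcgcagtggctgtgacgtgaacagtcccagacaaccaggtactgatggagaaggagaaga
Ankfy1, A_44_P576056, chromosome 10: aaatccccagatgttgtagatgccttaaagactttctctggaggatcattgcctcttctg
Ccng1, A_44_P367761, chromosome 10: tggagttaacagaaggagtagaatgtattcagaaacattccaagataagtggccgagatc
Ccng1, A_44_P235919, chromosome 10: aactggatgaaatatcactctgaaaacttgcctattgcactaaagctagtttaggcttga
Taf13, A_44_P134287, chromosome 2: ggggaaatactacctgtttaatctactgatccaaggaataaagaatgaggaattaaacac
Taf13, A_44_P215467, chromosome 2: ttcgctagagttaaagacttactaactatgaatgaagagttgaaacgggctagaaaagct
Acaa2, A_44_P242329, chromosome 18: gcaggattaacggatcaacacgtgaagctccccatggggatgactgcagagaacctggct
Acaa2, A_44_P242321, chromosome 18: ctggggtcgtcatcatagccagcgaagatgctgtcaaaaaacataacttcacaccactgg

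RT1-Bb, a chain of a class II histocompatibility molecule of the rat, gave 0.390, 0.394 and 0.529 in the GK pools, against 18.4, 25.5 and 24.7 in the control pools, with the first of its probes. That is at least 11.5-fold lower in GK (mean 0.438 ± 0.0788 in GK and 22.9 ± 3.86 in control, SD, n = 3 each; adjusted p = 4.2e-07, limma). With the other probe it gave 30.4, 23.8 and 29.5 in the GK pools, against 22.8, 23.6 and 24.8 in the control pools, which overlap (log2 difference 0.23, adjusted p = 0.82, limma). So 1 probe put RT1-Bb among the largest decreases and the other was not called. Scn9a, a voltage-gated sodium channel best known from sensory neurons, gave 1.34, 0.671 and 0.685 in the GK pools, against 14.1, 21.7 and 19.7 in the control pools, with the first probe (at least 9.22-fold lower in GK). The other Scn9a probe gave 12.0, 10.1 and 12.7 in the GK pools, against 8.55, 10.6 and 9.42 in the control pools (log2 difference 0.28). Ankfy1, an effector of Rab proteins on endosomes, was at least 8.02-fold lower in GK with the probe that gave 1.96, 1.88 and 1.88 in the GK pools, against 15.9, 16.1 and 18.3 in the control pools. The bright Ankfy1 probe gave 425, 483 and 485 in the GK pools, against 503, 507 and 456 in the control pools (log2 difference -0.07, and 0.03 with the 50th percentile). For both genes the second probe overlapped between the groups.

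Ccng1, a cyclin that is induced by p53, showed the same split between bright probes. The first gave 150, 156 and 155 in the GK pools, against 1276, 1194 and 1052 in the control pools (7.62-fold lower in GK, log2 difference -2.93 ± 0.12 SE, adjusted p = 3.8e-13, limma). The second gave 1482, 1638 and 1650 in the GK pools, against 1598, 1636 and 1440 in the control pools, where the groups overlap (log2 difference 0.03, and -0.03 with quantile normalization). Eif2ak2, the double-stranded RNA-activated kinase induced by interferon, was 3.54-fold higher in GK with its dim probe and had a log2 difference of -0.22 with its bright one. Fgb, the fibrinogen beta chain, was called in both directions, higher with 1 probe and lower with the other. The lower Fgb probe overlapped between the groups, with 0.371, 0.373 and 0.501 in the GK pools, against 10.6, 0.428 and 3.92 in the control pools, and its call was lost without any 1 of 5 of the 6 pools (adjusted p from 0.097 to 0.32, limma). The higher one was lost without GK pool 1, GK pool 2 or control pool 1 (adjusted p from 0.075 to 0.23, limma). It was also lost with the slide as a block (adjusted p = 0.085, limma).

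Where 2 probes were called the same way, their sizes were close. Taf13, a subunit of the general transcription factor TFIID, gave 4936, 5049 and 4931 in the GK pools, against 1299, 1284 and 1208 in the control pools, with the first of its probes. The second Taf13 probe gave 1146, 1140 and 1176 in the GK pools, against 354, 345 and 303 in the control pools. All GK values were above all control values, and the log2 differences were 1.98 ± 0.13 and 1.79 ± 0.13 (SE, adjusted p = 2.7e-09 and 6.4e-09, limma). Acaa2, the mitochondrial thiolase of fatty acid oxidation, gave 38.1, 36.8 and 30.2 in the GK pools, against 84.1, 81.1 and 90.4 in the control pools, and with its second probe 85.5, 77.6 and 72.0 in the GK pools, against 180, 174 and 178 in the control pools. Both put it lower, by 2.44-fold and 2.27-fold. Klf7, a Krüppel-like factor of neurons, was 2.13-fold and 2.04-fold higher in GK. The Klf7 differences fell under 2-fold without GK pool 2 or control pool 1 (lowest log2 differences 0.91 and 0.80). With the slide as a block the second Klf7 probe was at 0.94. Mobp, a protein of central myelin, was lower with all 3 tested probes, of which 2 were called. Its called probes gave 185, 190 and 164 in the GK pools, against 720, 659 and 715 in the control pools (log2 difference -1.96), and 558, 736 and 612 in the GK pools, against 1701, 1905 and 1985 in the control pools (log2 difference -1.56).

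**Figure D2:**
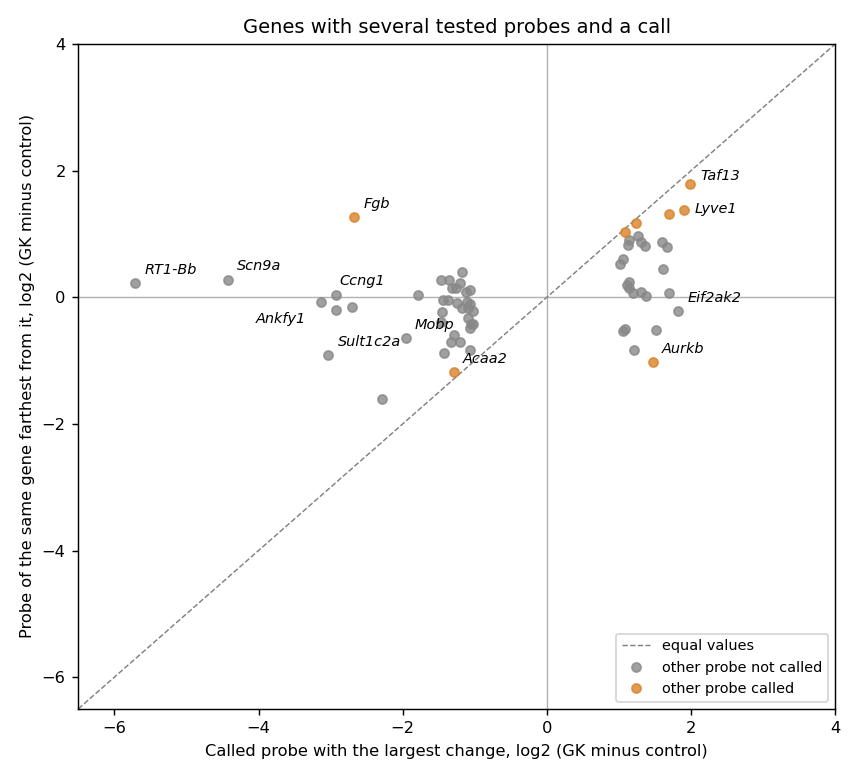
Log2 difference (GK minus control) of the called probe with the largest change (x axis) and of the tested probe of the same gene farthest from it (y axis) for the 67 genes with several tested probes and a call, orange where the other probe was called too; the dashed line marks equal values. RT1-Bb, Scn9a, Ankfy1 and Ccng1 lie near 0 on the y axis while Taf13 and Acaa2 lie near the line.

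Gene lists were described with 1 probe a gene, the brightest of its tested probes, except for the study's own PCR list. Over all 12739 genes taken so, 97 were called higher (0.761%) and 108 lower (0.848%). The list of interferon-stimulated genes, whose products are made after type I interferon binds its receptor and act against viruses, held 41 tested genes, of which 8 were called higher and 1 lower, and 32 had a positive sign. The median of the list was 0.46, against -0.03 over all genes. Mx2, a GTPase that blocks viral replication, gave 97.8, 115 and 86.2 in the GK pools, against 23.8, 22 and 25.0 in the control pools (4.20-fold higher in GK, log2 difference 2.07 ± 0.19 SE, adjusted p = 1.5e-07, limma). Oas1a, an oligoadenylate synthetase that senses double-stranded RNA, gave 254, 293 and 201 in the GK pools, against 79.7, 70.2 and 110 in the control pools (log2 difference 1.54 ± 0.28 SE, adjusted p = 0.0012, limma). Irf7, the transcription factor that amplifies the interferon response, gave 227, 230 and 181 in the GK pools, against 88.5, 61.9 and 83.5 in the control pools. The GK pools were above all control pools for these 3 genes, with GK pool 3 the lowest GK pool of each. Rtp4, a chaperone of membrane receptors induced by interferon, was 2.75-fold higher, Isg15, a ubiquitin-like modifier, 2.49-fold, Bst2, the tetherin that holds virus particles on the cell surface, 2.20-fold and Rsad2, the antiviral viperin, 2.06-fold. Ifit3, of the family of interferon-induced tetratricopeptide proteins, was at least 1.98-fold higher, with a mean of 3.80 ± 1.76 in GK and 1.10 ± 0.322 in control.

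Members of the same family did not all go the same way. Oas1b, an oligoadenylate synthetase encoded beside Oas1a on chromosome 12, gave 0.438, 0.464 and 0.644 in the GK pools, against 2.66, 2.60 and 4.13 in the control pools, and was at least 1.55-fold lower in GK (adjusted p = 5.9e-06, limma). Mx1, the relative of Mx2, gave 6.86, 7.08 and 4.95 in the GK pools, against 18.1, 20.2 and 25.2 in the control pools, with no overlap but an adjusted p of 0.076 (limma). In fits on the hippocampal arrays alone and on the 2 groups alone, the interferon list had 8 higher and 2 lower genes. With the slide as a block the list had 3 higher and 1 lower genes and a median of 0.29, and within slide 2 it had 1 higher and 1 lower genes and a median of 0.37. With the block the calls of Ifit3, Irf7, Isg15, Bst2 and Rsad2 were lost (adjusted p = 0.073, 0.089, 0.11, 0.066 and 0.072, limma), and Isg15 and Rsad2 were also lost without GK pool 2 or without control pool 2 (Isg15 adjusted p = 0.052 and 0.055, limma; Rsad2 log2 difference 0.91 at the lowest).

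Probe and promoter sequences of the Oas1 pair and the promoter of Bst2 are shown because neighbouring genes of 1 family moved in opposite directions while their promoters hold the same motif. Promoters run from 250 bases before to 50 bases after the start of the RefSeq gene (build GRCr8) in the direction of transcription, and capitals mark GAAANNGAAA, the core of the element to which interferon-activated factors bind, searched on both strands; where 2 matches overlap, 1 run of capitals covers both.
Oas1a, A_42_P729340, chromosome 12: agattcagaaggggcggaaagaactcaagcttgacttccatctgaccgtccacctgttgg
Oas1b, A_44_P332744, chromosome 12: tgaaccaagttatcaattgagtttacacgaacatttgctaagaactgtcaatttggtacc
Oas1a, promoter, chr12:41330216-41330515, plus strand: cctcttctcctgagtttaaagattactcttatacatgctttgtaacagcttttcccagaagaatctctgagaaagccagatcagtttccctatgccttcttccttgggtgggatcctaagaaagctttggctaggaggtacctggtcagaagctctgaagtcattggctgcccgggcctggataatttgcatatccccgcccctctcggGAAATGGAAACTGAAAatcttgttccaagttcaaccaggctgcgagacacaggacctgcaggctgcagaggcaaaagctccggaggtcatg
Oas1b, promoter, chr12:41395803-41396102, minus strand: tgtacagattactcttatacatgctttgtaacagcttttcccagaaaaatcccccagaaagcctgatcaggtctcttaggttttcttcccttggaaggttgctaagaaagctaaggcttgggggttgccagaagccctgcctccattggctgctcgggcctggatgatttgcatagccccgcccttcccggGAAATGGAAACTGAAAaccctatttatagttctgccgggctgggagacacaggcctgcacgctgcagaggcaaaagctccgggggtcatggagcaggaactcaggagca
Bst2, promoter, chr16:18254918-18255217, minus strand: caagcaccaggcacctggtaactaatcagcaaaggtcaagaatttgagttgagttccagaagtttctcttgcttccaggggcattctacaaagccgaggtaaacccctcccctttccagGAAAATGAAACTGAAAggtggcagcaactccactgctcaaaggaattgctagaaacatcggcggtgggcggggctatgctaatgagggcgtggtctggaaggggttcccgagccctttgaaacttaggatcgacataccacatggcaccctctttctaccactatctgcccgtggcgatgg
The first match began 41 bases before the start in Oas1a, 59 bases before it in Oas1b and 131 bases before it in Bst2. A promoter was listed for 5 of the 8 higher members, and all 5 held the motif (Oas1a, Ifit3, Irf7, Bst2 and Rsad2). It was also found in that of Oas1b and in 15 of 25 promoters of members that were not called. Of all 33469 promoters of that length, 1312 held the motif (3.92%), and of 10368 tested genes with a promoter, 332 did (3.20%). A match describes the letters of the window only.

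**Figure D3:**
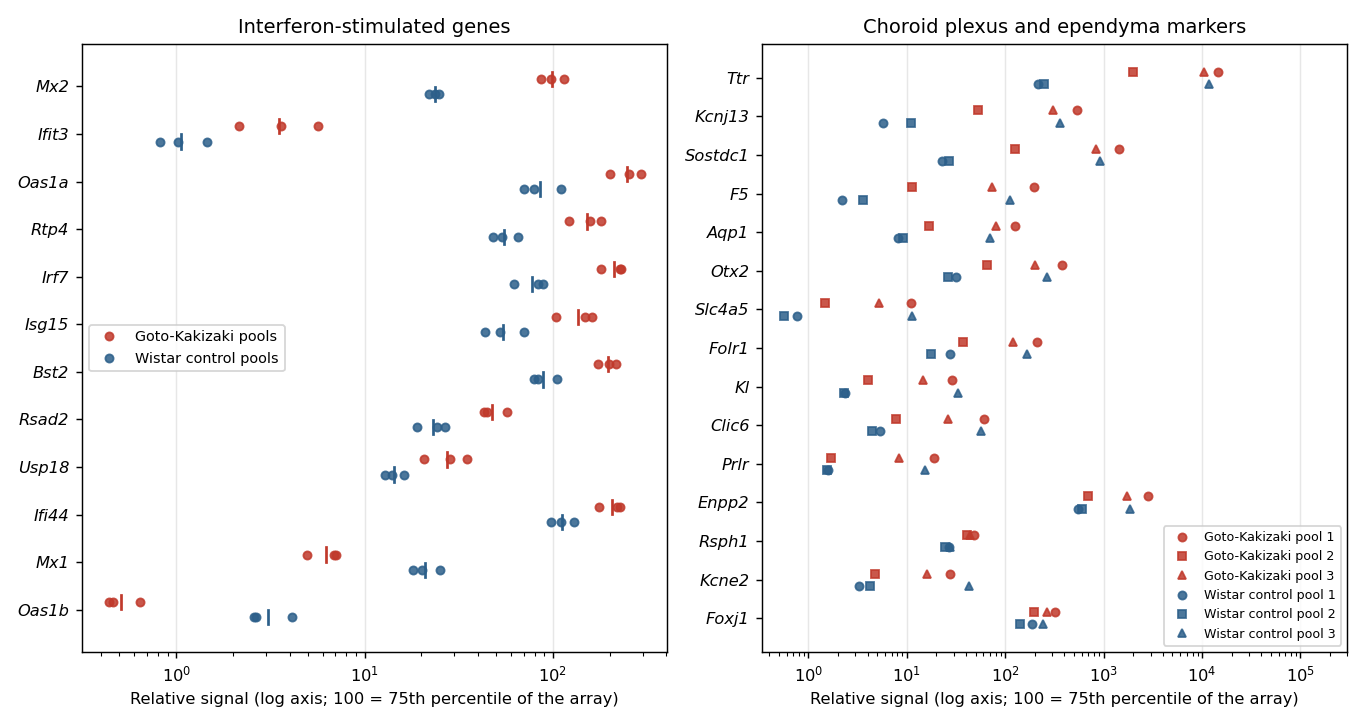
Relative signal (log axis, 100 = the 75th percentile of the array) of single GK pools (red) and Wistar control pools (blue) for 12 interferon-stimulated genes (left, bar at the geometric mean) and for the 15 tested markers of choroid plexus and ependyma (right, with the pool given by the shape). The groups do not overlap for the 12 genes on the left, 9 of which were shown because they were called (45.2% of all tested probes have separate groups), whereas GK pools 1 and 3 and control pool 3 are high together in most choroid plexus markers, as for Ttr.

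The other immune lists held fewer calls. Of 34 tested genes of antigen presentation, 2 were called higher and none lower, with a median of 0.22. RT1-CE7, a class I histocompatibility gene, gave 55.0, 43.9 and 48.6 in the GK pools, against 22.7, 16.9 and 25.2 in the control pools (adjusted p = 0.022, limma), and RT1-T24-1, another, was 2.07-fold higher. The call of RT1-CE7 was lost without GK pool 1 or 3 or control pool 1 or 2 (adjusted p from 0.058 to 0.12, limma), and that of RT1-T24-1 without GK pool 2 or control pool 2 (adjusted p from 0.064 to 0.068, limma). The RT1-T24-1 call was also lost with the slide as a block (adjusted p = 0.07, limma). The lower RT1-Bb probe is not counted in this list, since the brighter one stands for the gene. For the same reason called probes of RT1-M6-2, RT1-S3 and RT1-T18 are not counted (log2 differences -1.47, -1.20 and 1.21). The brighter RT1-T18 probe was at -0.84. Of 26 markers of microglia and complement, 1 was called higher and 2 lower, with a median of -0.11. Cd52, a glycoprotein of leukocytes, gave 38.4, 46.6 and 59.4 in the GK pools, against 15.8, 11.3 and 18.4 in the control pools (log2 difference 1.68 ± 0.28 SE, adjusted p = 5.8e-04, limma). Itgam, the integrin of the complement receptor of microglia, gave 15.1, 16.6 and 15.8 in the GK pools, against 41.9, 64.1 and 51.9 in the control pools (log2 difference -1.71, adjusted p = 0.015, limma), and Tmem119, a marker of resident microglia, was 2.44-fold lower. The groups did not overlap for these 3 genes. The Itgam call was lost without GK pool 1 or 3 or control pool 2 (adjusted p from 0.056 to 0.075, limma) and the Tmem119 call without GK pool 3 or control pool 1 (adjusted p from 0.053 to 0.054, limma). With the slide as a block the Tmem119 call was lost as well (adjusted p = 0.053, limma). Aif1, Trem2 and Tyrobp, further genes of microglia, had log2 differences of -0.04, -0.06 and -0.01.

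Of 12 tested markers of lymphocytes and of macrophages at brain borders, 4 were called higher (Cxcl13, Lyve1, Pf4 and Cd3g) and the median was 0.50. Their summed relative signal was 213 to 217 in the GK pools, against 132 to 145 in the control pools, and Cd8a, Cd4, Cd79b and Ms4a1, defining markers of T and B cells, were not above background. Lyve1, a hyaluronan receptor of lymphatic endothelium and border macrophages, gave 20.3, 19.0 and 20.1 in the GK pools, against 8.43, 6.87 and 7.66 in the control pools (log2 difference 1.38, adjusted p = 5.9e-04, limma). Pf4, a chemokine of platelets and border macrophages, gave 22.6, 18.9 and 25.1 in the GK pools, against 10.2, 9.47 and 9.15 in the control pools. All GK pools were above all control pools for both, whereas Mrc1 and Cd163, which mark the same macrophages, had log2 differences of 0.18 and -0.38 and were not called. The call of Cd3g, a chain of the T cell receptor complex, was lost without GK pool 2 or 3 or control pool 3 (adjusted p from 0.079 to 0.13, limma). With the slide as a block it was lost too (adjusted p = 0.11, limma). Of 10 tested transcripts of red cells and plasma, Alb and Fgb were called higher, with a median of 0.67. Alb, the plasma albumin, gave 168, 144 and 169 in the GK pools, against 65.8, 81.8 and 63.6 in the control pools (2.28-fold higher in GK, adjusted p = 3.9e-04, limma), and the haemoglobin genes Hba-a3 and Hbb-b1 had log2 differences of 0.63 and 0.46 that were not called.

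The choroid plexus, the epithelium of the ventricles that makes cerebrospinal fluid, lies beside the hippocampus, and its markers varied widely between pools of the same group. Ttr, the thyroxine carrier transthyretin and its most abundant transcript, gave 14675, 1978 and 10402 in the GK pools, against 216, 247 and 11857 in the control pools. Kcnj13, a potassium channel of its apical membrane, gave 530, 52.4 and 308 in the GK pools, against 5.77, 11.0 and 361 in the control pools. GK pools 1 and 3 and control pool 3 were high, GK pool 2 was between and control pools 1 and 2 were low, so that the groups overlapped and neither gene was called (adjusted p = 0.21 and 0.19, limma). All 15 tested markers had a positive sign, with a median of 1.17, and none was called; their summed relative signal was 3240 to 20873 in the GK pools, against 1092 to 16026 in the control pools. Without control pool 3 the list had 8 higher genes and a median of 2.37, and without GK pool 1 no call and a median of 0.70. Over all probes, 293 were called higher and 312 lower without control pool 3, of which 210 and 292 were among the calls from all 6 arrays. Slpi, an inhibitor of proteases in secretions, followed the same pools with 22.9, 8.23 and 12.7 in the GK pools, against 2.64, 3.15 and 8.47 in the control pools for its bright probe. Its calls with both probes were lost without GK pool 1, control pool 1 or control pool 2 (adjusted p from 0.066 to 0.15, limma). Cxcl13 and Lrat also had GK pool 2 as the lowest GK pool and control pool 3 as the highest control pool. Lrat gave 6.44, 1.59 and 3.07 in the GK pools, against 0.405, 0.871 and 1.23 in the control pools. No control array was above background for either gene. The part of choroid plexus in differences of other genes was not tested.

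Markers of the labelled tissue were present in both groups. Of 22 tested markers of hippocampal pyramidal and granule neurons none was called, and their median was -0.01, with 10 of the 22 positive. Calb1, Wfs1 and Neurod6 had mean relative signals of 587, 182 and 1308 in GK and of 631, 185 and 1095 in control. The smallest p-values were those of Slc17a7 and Dsp, both lower in GK (log2 differences -0.68 and -0.89, adjusted p = 0.036 and 0.051, limma). Of 17 markers of inhibitory interneurons none was called either, with a median of 0.22. Among them Sst, the peptide somatostatin, gave 4922, 4842 and 5321 in the GK pools, against 2869, 3511 and 2925 in the control pools, a difference of 1.63-fold that passed the test (adjusted p = 0.010, limma) but not the fold. Of 22 markers of oligodendrocytes and myelin, Mobp alone was called, and 19 of the 22 were not positive, with a median of -0.33. Mbp and Mog, further myelin proteins, had log2 differences of -0.74 and -0.18. Lists of astrocytes, meninges, vessels, thalamus and neocortex held no call, and their medians lay between -0.11 and 0.11. A dimmer probe of Tek, a gene of the vessel list, was called at -1.37, while the brighter one that stands for it was at -0.04. In the list of striatal neurons only Pde10a was called, whereas Drd1, Drd2 and Adora2a, which define those cells, had mean relative signals of 3.28, 5.17 and 15.9 in GK and of 2.96, 6.14 and 24.8 in control.

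Genes of insulin action and of glucose use were close to the median of all genes. Of 39 tested genes of insulin and IGF signalling and of 36 genes of glucose uptake and glycolysis none was called, with medians of -0.04 and 0.01. Insr, the insulin receptor, gave 3.06, 2.74 and 3.34 in the GK pools, against 2.36, 1.78 and 2.04 in the control pools, which is 1.48-fold with an adjusted p of 0.026 (limma). Igfbp3, a carrier of insulin-like growth factors, gave 660, 566 and 670 in the GK pools, against 251, 390 and 412 in the control pools (1.84-fold, adjusted p = 0.0029, limma). Both had separate groups and stayed under the 2-fold threshold. Irs2, Akt1, Akt2 and Gsk3b, steps of the cascade behind the receptor, had log2 differences of 0.21, -0.39, -0.31 and -0.01. Txnip, a protein that glucose induces in many cells, gave 132, 175 and 164 in the GK pools, against 117, 98.3 and 114 in the control pools (adjusted p = 0.088, limma). Of 41 genes of antioxidant defence none was called, with a median of 0.01.

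**Figure D4:**
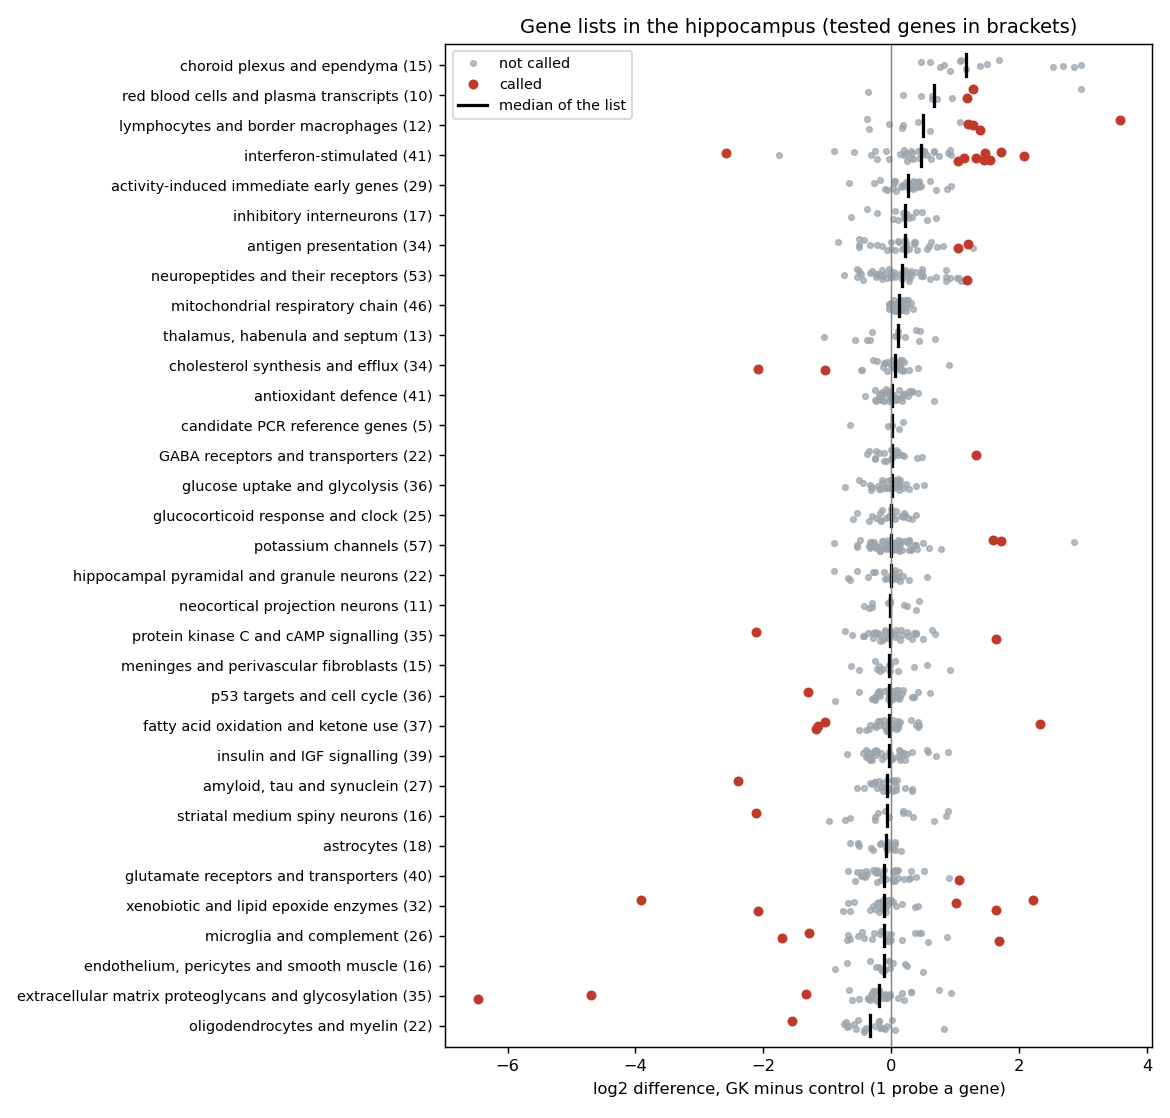
Log2 difference (GK minus control) of every tested gene of 33 lists, 1 probe a gene, with called genes in red, other genes in grey and the median of a list as a black line; the number of tested genes stands in brackets and lists are ordered by median. The medians run from 1.17 for choroid plexus and ependyma to -0.33 for oligodendrocytes and myelin, and the insulin and glycolysis lists hold no red point.

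Lipid genes held a few calls in both directions. Of 37 genes of fatty acid oxidation and ketone use, Acox2 was called higher and Acaa2, Eci2 and Ucp2 lower, with a median of -0.03. Eci2, an isomerase for unsaturated fatty acids, gave 300, 291 and 315 in the GK pools, against 607, 586 and 669 in the control pools (log2 difference -1.04 ± 0.14 SE, adjusted p = 3.6e-05, limma), and -0.98 without control pool 3. Ucp2, a carrier of the inner mitochondrial membrane, gave 23.0, 27.2 and 25.4 in the GK pools, against 58.0, 53 and 55.6 in the control pools (2.21-fold lower in GK, adjusted p = 2.6e-04, limma). The GK pools were below all control pools for both. Carriers and dehydrogenases of the pathway such as Cpt1a, Acadm and Hadha had log2 differences of -0.24, -0.05 and -0.03. Of 34 genes of cholesterol synthesis and efflux, Cyp27a1 and Abca1 were called lower. Abca1, the exporter of cholesterol to lipoproteins, gave 19.0, 18.2 and 18.9 in the GK pools, against 39.4, 35.9 and 40.4 in the control pools (log2 difference -1.04 ± 0.10 SE, adjusted p = 2.8e-07, limma). Of 32 genes of xenobiotic and lipid epoxide metabolism 3 were called higher (Ces1d, Ftcd and Retsat) and 2 lower (Ephx2 and Cyp27a1). Ftcd, an enzyme of histidine and folate metabolism, gave 40.7, 43.4 and 45.1 in the GK pools, against 12.6, 13.2 and 15.7 in the control pools (3.12-fold higher in GK, adjusted p = 4.9e-08, limma). Retsat, a retinol saturase, was 2.02-fold higher and fell under 2-fold without GK pool 2 or control pool 2 (log2 difference 0.89 at the lowest). With the slide as a block the Retsat difference was 0.90 (adjusted p = 0.06, limma). Of 46 genes of the mitochondrial respiratory chain none was called, 42 had a positive sign and the median was 0.12 (0.06 after quantile normalization and 0.22 with the 50th percentile).

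Few genes were called in the lists of neuronal signalling. Gabra4, an alpha subunit of GABA-A receptors, gave 251, 263 and 249 in the GK pools, against 100, 115 and 89.7 in the control pools (log2 difference 1.33 ± 0.17 SE, adjusted p = 1.3e-05, limma) and was the only called gene of 22 in its list. Grm2, a presynaptic metabotropic glutamate receptor, gave 351, 372 and 436 in the GK pools, against 183, 191 and 179 in the control pools (2.09-fold higher in GK) and was the only called one of 40. Kcnj12 and Kcnq3, an inward rectifier and a subunit of the M-type channel, were the only called genes of 57 in the potassium channel list. Kcnq3 gave 620, 598 and 600 in the GK pools, against 207, 155 and 197 in the control pools (3.27-fold higher in GK, adjusted p = 2.1e-05, limma), and Kcnj12 was 3.02-fold higher. The groups of all 4 genes were separate, and Grm2 fell under 2-fold without GK pool 3 and with the slide as a block (log2 difference 0.97 in each). Grp, a bombesin-like peptide, gave 1080, 1111 and 1266 in the GK pools, against 357, 576 and 641 in the control pools and was the only called gene of 53 neuropeptides and receptors. Its adjusted p was 0.013, and 0.068 or 0.11 without GK pool 3 or control pool 1 (limma). Pde10a, a phosphodiesterase for cAMP and cGMP, gave 40.8, 43.3 and 39.1 in the GK pools, against 179, 187 and 167 in the control pools (4.33-fold lower in GK, adjusted p = 3.9e-09, limma), and Akap3, an anchor of protein kinase A, was 3.11-fold higher. Of 29 activity-induced genes none was called, with a median of 0.26. Jund had the smallest p of the list and was 1.83-fold higher with its brighter probe (2 values a group, adjusted p = 0.0039, limma). Its dimmer probe, not counted in the list, was called with a log2 difference of 1.60. Fos gave 88.3, 67.8 and 67.4 in the GK pools, against 44.5, 48.8 and 52.7 in the control pools (1.52-fold, adjusted p = 0.028, limma).

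Sncg, a synuclein of axons, gave 54.7, 59.3 and 64.9 in the GK pools, against 451, 250 and 269 in the control pools (5.24-fold lower in GK, log2 difference -2.39 ± 0.33 SE, adjusted p = 4.7e-05, limma) and was the only called gene of 27 in the list of amyloid, tau and synuclein. Chi3l1, a chitinase-like protein of astrocytes, gave 28.9, 32.0 and 28.1 in the GK pools, against 105, 138 and 144 in the control pools (4.32-fold lower in GK, adjusted p = 1.1e-08, limma). Cdk10, a cyclin-dependent kinase, was 2.47-fold lower and the only called gene of 36 among p53 targets and the cell cycle, where the brighter Ccng1 probe stands for Ccng1. The GK pools lay below the control pools for all 3 genes. A list of genes kept after PCR on RNA of these samples held 30 tested probes here, of which 10 were called higher and 12 lower, and 17 higher and 12 lower with the 50th percentile; since the list was chosen on these samples, neither count is independent evidence of a direction. Of 5 candidate PCR reference genes none was called, and Actb, the cytoplasmic actin, gave 4182, 4537 and 4646 in the GK pools, against 7480, 7716 and 5895 in the control pools (adjusted p = 0.024, limma).

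Called genes lay on every autosome and on chromosome X. Of the 245 called genes, 28 (11.4%) neighboured another called gene in the order of tested genes, in 14 pairs and no longer run. The share that a random order would give was not computed, so 11.4% cannot be read as few or many. Pairs such as Umod and Acsm5 (log2 differences -2.07 and -2.29) went the same way, and pairs such as Oas1a and Oas1b went opposite ways. On chromosome 20, which carries the RT1 complex, 16 of 377 tested genes were called (4.24%), and on chromosome X 1 of 406 (0.246%), against 1.92% of all genes.

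The GK rats were also set against the STZ rats, whose blood sugar was higher. Of 30063 probes tested in the hippocampus, 846 were called between GK and STZ (2.81%), 360 of them higher and 486 lower in GK; the groups share no slide. Both models have the same control pools, so that their differences from control are not independent. Spock2 gave 1494 and 1404 in the STZ pools with a spot left out, Galnt16 314, 302 and 348, and Ephx2 33.6, 35.9 and 40.2, close to the control pools named above. Mx2 gave 42.0, 32.1 and 39.0 in the STZ pools and was higher in GK than in STZ by 1.40 on the log2 scale (SE 0.19, adjusted p = 2.9e-05, limma). Among the other called genes of the interferon list, Irf7 was called higher in GK than in STZ (1.19) and Oas1b lower (-3.14). Oas1a, Bst2, Ifit3, Rtp4, Isg15 and Rsad2 were not called between the models, with log2 differences of 0.88, 0.81, 0.59, 0.58, 0.40 and 0.35. Trim16 was low in both models, with 2.90, 1.99 and 3.61 in the STZ pools, and the GK minus STZ difference was -0.27 ± 0.24 (SE, adjusted p = 0.58, limma). Other named genes moved the same way in STZ. Ftcd, Akap3, Areg, Kcnq3 and Pf4 had STZ minus control log2 differences of 1.17, 1.17, 1.43, 1.20 and 1.02 and were not called between GK and STZ. Kif15 and Plac9 were at 1.22 and -1.46 in STZ but were called between the models. Sncg gave 100, 104 and 97.2 in the STZ pools, below all control pools and above all GK pools, with a GK minus STZ difference of -0.75 ± 0.33 (SE, adjusted p = 0.17, limma). Alb was highest in STZ, at 247, 353 and 271, and was lower in GK than in STZ by a log2 difference of -0.84 ± 0.20 (SE, adjusted p = 0.0074, limma).

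To see where the hippocampal difference is not that of another region, the GK minus control difference of the hippocampus was set against that of the prefrontal cortex and that of the striatum. It differed for 59 of 31260 probes (0.189%) from the prefrontal cortex and for 117 of 31414 (0.372%) from the striatum. Both counts moved with single pools, from 15 to 77 and from 31 to 630, and the median SD of a probe was 0.0884 in GK and 0.108 in control hippocampus, against 0.292 in GK and 0.258 in control striatum. The regions come from the same animals, which the fit took as independent. With the replicate number as a block the counts were 28 and 208. Spock2 and Galnt16 had similar differences in the other regions: Spock2 was at -6.47 here, at -6.15 in prefrontal cortex and at -5.66 in striatum, and Galnt16 at -4.70, -4.43 and -4.60. Ucp2 went the other way, with log2 differences of -1.14 in hippocampus but 0.53 in prefrontal cortex and 0.60 in striatum. Neither of the last 2 was called, both being under 2-fold (adjusted p = 0.073 and 0.028, limma). The hippocampal difference was lower by 1.67 ± 0.26 than that of the prefrontal cortex and by 1.74 ± 0.26 than that of the striatum (SE, adjusted p = 0.0066 and 0.0022, limma). Dmkn was 2.07 higher in GK hippocampus and -0.04 in the striatum, a difference of 2.11 ± 0.30 (SE, adjusted p = 0.0022, limma), and Akap3 was at 1.64 and -0.18, a difference of 1.82 ± 0.22 (SE, adjusted p = 2.6e-04, limma).

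**Figure D5:**
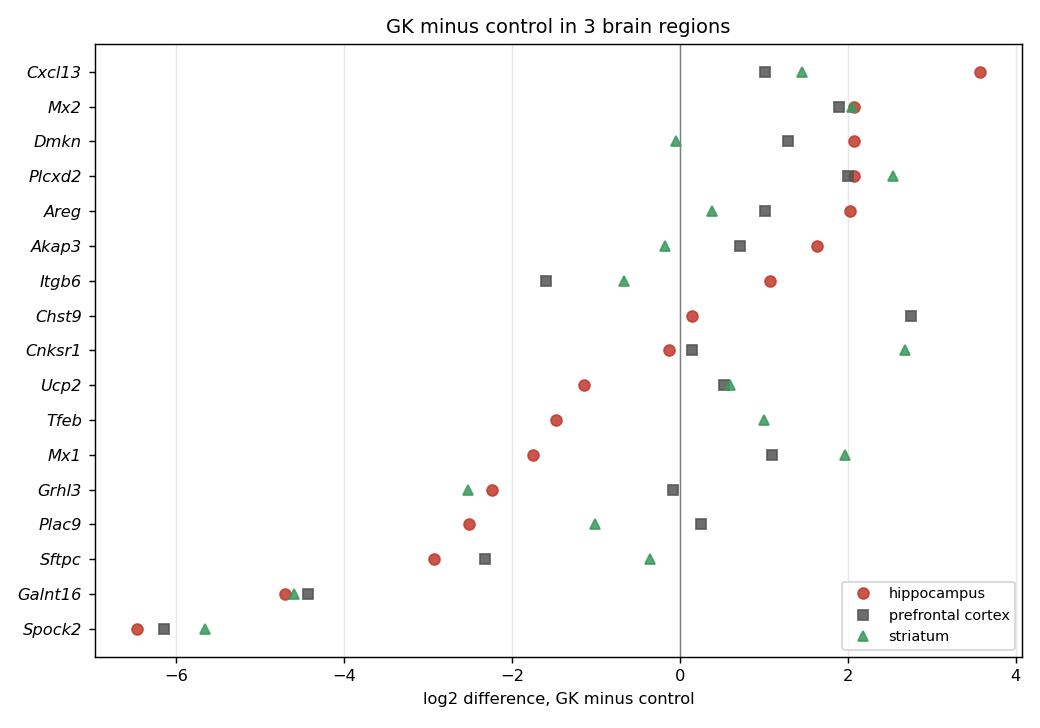
Log2 difference (GK minus control) in the hippocampus (red circles), prefrontal cortex (grey squares) and striatum (green triangles) for 17 named genes. Spock2, Galnt16, Mx2 and Plcxd2 have similar values in all 3 regions, whereas Ucp2 is at -1.14 for hippocampus, 0.53 for prefrontal cortex and 0.60 for striatum. Ucp2 was called in the hippocampus only. A missing symbol marks a region in which the probe was not tested.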

How the data were processed

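RNA of 27 pools (3 brain regions of GK, STZ and Wistar control rats, 3 pools of 3 animals each) was hybridised to 1-colour Agilent arrays. The deposited intensity of a spot is the processed signal that Agilent Feature Extraction 9.1 wrote, which the authors scanned and background-corrected with that software; the deposited value table held the same intensities (largest relative difference 0 over 42429 features). The study's methods name GeneSpring GX, normalization to control medians, flag screening and Welch's test with a 2-fold limit; of these only the t-test and its limit were run here, as an alternative on the scaled values. Outlier spots (423 on the 6 arrays) and 1417 control spots were left out. Each probe had a single spot on an array, so an outlier left no value. Log2 intensity minus the array's 75th percentile was fitted with lmFit and eBayes of limma 3.58.1 (R 4.3.3). The fit covered 27 arrays in 9 groups with 18 residual degrees of freedom. No spot was saturated. Tables were made with Python 3.11.15, pandas 2.3.3 and numpy 2.4.6, and figures with matplotlib 3.10.9.

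Adjusted p-values are Benjamini-Hochberg over all tested probes. They set a difference against the spread between pools within groups, estimated for a probe over all 27 arrays in 9 groups. They do not measure the spread of the hippocampal pools alone, which was smaller in GK and control than that of the striatal pools. "At least" folds apply to a probe that no array of a group measured above background. On each such array it was set at the lowest signal above background, or at its own signal where that was larger. Of 41012 probes 20035 matched a RefSeq gene (10735 by accession, 5571 by symbol, 3729 by synonym) and 20977 stay unnamed. Named genes are the 15 largest increases and decreases with separate groups, up to 4 called members of a list, the 5 widest gaps between probes of a gene and the 5 largest differences from another region; 21 further probes were chosen after their values were seen. The members and lists were chosen with earlier results of these data known. In simulated data 87% of 100 probes changed by 1.5 on the log2 scale and 92% of 100 changed by 2 were called. The alternatives were other scalings, background correction, filters, fits, blocks by slide or replicate number, and leaving out each pool. No per-sample column was left unused. A few genes are not reported here.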

Additional observations from a re-analysis of the deposited data

Results flagged for a closer look

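The GK minus control difference was larger or smaller in the hippocampus than in another region for 59 probes against the prefrontal cortex and for 117 against the striatum, by limma's test of the difference itself with Benjamini-Hochberg adjustment; the regions come from the same animals. The 10 genes below had the largest such differences among those with a symbol. For Cxcl13, Grhl3, Sftpc, Tfeb and Slc43a1 a hippocampal group had no array above background, so that the fitted difference rests on background values there and its size is not known. Background flags of the other regions are not given here. Chst9 in control prefrontal cortex (0.417 to 0.475) and Mx1 in control striatum (0.511 to 1.35) were as dim as such hippocampal groups. Their differences can therefore rest on background values as well.

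Against the prefrontal cortex, Plac9, a small secreted protein, gave 59.8, 59.3 and 60.6 in the GK pools, against 383, 361 and 288 in the control pools of the hippocampus, and 112 to 167 in GK and 107 to 118 in control prefrontal cortex (difference -2.76, adjusted p = 1.6e-04, limma). Itgb6, an integrin of epithelia, gave 131, 43.2 and 74.6 in the GK pools, against 29.3, 23.2 and 66.6 in the control pools of the hippocampus, where it was not called, and 5.28 to 7.34 in GK and 17.7 to 20.3 in control prefrontal cortex (difference 2.66, adjusted p = 0.030, limma). Its GK pools 1 and 3 and control pool 3 are the pools with high choroid plexus markers; a part of choroid plexus was not tested. Chst9, a sulfotransferase, differed little in the hippocampus (log2 difference 0.15) and was 2.05 to 4.50 in GK and 0.417 to 0.475 in control prefrontal cortex (difference -2.61, adjusted p = 0.0093, limma). Cxcl13 was called in the hippocampus, with a bound of at least 3.62-fold, and had a log2 difference of 1.02 in the prefrontal cortex that was not called (adjusted p = 0.063; fitted difference 2.56, adjusted p = 0.027, limma). Grhl3, a transcription factor of epithelia, gave 1.12, 1.11 and 0.615 in the GK pools, against 3.57, 3.92 and 5.76 in the control pools of the hippocampus, and overlapped in the prefrontal cortex (bound in the hippocampus at least 2.19-fold lower; fitted difference -2.16, adjusted p = 0.012, limma).

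Against the striatum, Mx1 was 2.00 to 3.83 in GK and 0.511 to 1.35 in control, the opposite order of its hippocampal values (difference -3.73, adjusted p = 0.034, limma). Cnksr1, a scaffold of Ras signalling, gave 5.65, 5.39 and 5.15 in the GK pools, against 5.26, 6.63 and 5.87 in the control pools of the hippocampus, and 32.8 to 45.3 in GK and 5.57 to 6.13 in control striatum (difference -2.81, adjusted p = 9.5e-05, limma). Slc43a1, an amino acid transporter, was above background on no GK or control array of the hippocampus, was not tested there and was 3.28 to 6.71 in GK and 1.09 to 2.57 in control striatum (fitted difference -2.61, adjusted p = 0.035, limma). Sftpc, at least 1.66-fold lower in GK hippocampus, overlapped in the striatum (fitted difference -2.56, adjusted p = 0.0085, limma). Tfeb, a transcription factor of lysosomal genes, gave 0.875, 1.77 and 1.18 in the GK pools, against 3.57, 2.78 and 3.95 in the control pools of the hippocampus, and 3.27 to 7.10 in GK and 1.06 to 3.81 in control striatum (fitted difference -2.47, adjusted p = 0.048, limma). Its hippocampal call was lost without GK pool 1 or 3 or any 1 control pool (adjusted p from 0.054 to 0.17, limma).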

How the results depend on the processing

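The calls between GK and control hippocampus (240 higher and 350 lower) stayed within 1.5 times of these counts under quantile normalization, 3 filters on dim probes, fits on fewer arrays, the unadjusted t-test of the methods and the slide as a block. They were 81 higher and 124 lower with normexp background correction, 77 and 146 with the methods' t-test after adjustment, 730 and 859 with no fold threshold, 113 and 197 within slide 2 and, chosen after seeing the data, 153 and 197 without slide 2; the last 2 use fewer arrays. With the replicate block they were 252 and 345; same-numbered pools correlated at 0.0586, 0.174 and 0.148 in their deviations, and the numbers do not pair the animals. Without 1 pool each they were 213 to 293 higher and 291 to 331 lower. The 59 probes that differed from the prefrontal cortex became 5 with normexp, 31 with no filter on dim probes, 91 with the groups of the contrast alone and 28 with the replicate block, and 15 to 77 without 1 pool each. The 117 that differed from the striatum became 265 with the 50th percentile, 3 with normexp, 69 with no filter, 9 with the groups alone and 208 with the replicate block, and 31 to 630 without 1 pool each. The 846 between GK and STZ became 289 with normexp and were 725 to 832 without 1 pool each. Signs turned, all at values near 0, for the uncalled Ankfy1 probe A_44_P576056 (0.03 with the 50th percentile), the uncalled Ccng1 probe A_44_P235919 (-0.03 with quantile normalization, within slide 2 and without control pool 3; -0.03 to 0.08 without 1 pool each), Cnksr1 (0.01 with quantile normalization and 0.03 within slide 2) and the called Fgb probe A_44_P226859 (0.02 without slide 2), and with normexp for the hippocampus minus striatum difference of Sftpc (0.07) and Slc43a1 (0.08). Of 83 named calls 39 were lost with normexp and 49 with the methods' t-test after adjustment. The settings within slide 2 and without slide 2 each leave 1 pool in a group and are not counted here. Of the 83 calls 62 held without each pool, and 57 held under every alternative other than these. The cause was not tested. Dim probes limit the sizes, since 91 lower probes had no GK signal above background.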
